A study of Mus musculus with 97 samples.

Results

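The enteric nervous system of the mouse colon was followed through 35 genes, chosen by name from a table of 20457 genes as markers of enteric neurons and glia and of the ligands and receptors these cells use. All 35 were in the table, and 34 were abundant enough to be tested. The exception was Erbb4, a neuregulin receptor, which stayed below 1 CPM (counts in every 1000000) in all 97 libraries and at most reached 0.953. By role they fall into 3 neurotransmitter enzymes and carriers (Nos1, Chat, Slc18a3), 8 neuropeptides (Vip, Tac1, Penk, Nmu, Calcb, Grp, Gal, Npy), 4 transcription and RNA-binding factors (Phox2a, Hand2, Elavl3, Elavl4), 9 pan-neuronal, synapse and axon proteins (Uchl1, Snap25, Syt1, Stmn2, Tubb3, Nefl, Nefm, Prph, L1cam), 3 glial genes (S100b, Sox10, Gfap) and 8 ligands and receptors (Ret, Gfra1, Gfra2, Gdnf, Ednrb, Erbb4, Ngfr, Reln).

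The tissue was whole colon, flash-frozen, from specific pathogen free C57BL6/J mice that were 8 to 12 weeks old, with no genetic change named. Mice received ampicillin, metronidazole, neomycin, vancomycin, a mix of these 4, or phosphate buffered saline (PBS), with 3 routes for each: oral gavage (PO), intraperitoneal (IP) and intravenous (IV). A dose was 2.5 mg in 100 µl of PBS, given 2 times a day over 3 days with a last dose on day 4, and tissue was collected 4 hours later. How much of each drug the mix held is not given in the sources used here. In all, 18 groups, named by treatment and route as in Vancomycin-IP, mostly hold 6 libraries. There are 4 in PBS-IP, Vancomycin-IP and both the IP and IV groups of metronidazole, and 5 in the IV groups of PBS, neomycin and vancomycin. The labels do not state that each replicate is its own mouse, so the p-values speak only for the spread among these libraries, part of which may be technical. The deposited values were taken as CPM from the values themselves and are scaled to the same total in every library. The smallest steps between values put the depth roughly between 7.0 and 33.5 times 1000000 reads, with a median of 20.9 times 1000000. CPM are not divided by gene length, so levels are compared between libraries and never between genes.

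Enteric neurons and glia lie in ganglia between and beside the muscle layers of the gut wall and descend from the neural crest. Excitatory motor neurons use acetylcholine and tachykinins, inhibitory motor neurons use nitric oxide and vasoactive intestinal peptide, and other neuropeptides mark further classes of neuron. GDNF, released by smooth muscle and other cells of the wall, signals through the receptor Ret and the co-receptor Gfra1 and is needed for enteric neurons to form. In RNA from a whole piece of gut, fewer cells of a type and less RNA per cell cannot be told apart.

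Promoter sequences are shown for 3 members described below, Vip, Gal and Nos1. Vip followed a score of posterior Hox genes (the distal score, described with its results). It was called lower in Mix-IP against PBS-IP beside the muscle score. Gal followed the distal score in the opposite direction. Nos1, the enzyme of inhibitory motor neurons, stood high in Vancomycin-IP. Each sequence is the 250 bases before the annotated start, 5′ to 3′ on the gene's strand, from RefSeq on the build GRCm38.p6. Capitals mark the core of the cAMP response element, TGACG, read on either strand (CGTCA on the other).
Vip, chr10:5638968-5639217, plus strand: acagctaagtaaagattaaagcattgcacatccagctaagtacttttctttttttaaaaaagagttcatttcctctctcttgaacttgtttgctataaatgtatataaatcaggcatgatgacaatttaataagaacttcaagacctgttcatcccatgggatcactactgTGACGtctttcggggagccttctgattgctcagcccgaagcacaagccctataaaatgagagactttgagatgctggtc
Gal, chr19:3414545-3414794, minus strand: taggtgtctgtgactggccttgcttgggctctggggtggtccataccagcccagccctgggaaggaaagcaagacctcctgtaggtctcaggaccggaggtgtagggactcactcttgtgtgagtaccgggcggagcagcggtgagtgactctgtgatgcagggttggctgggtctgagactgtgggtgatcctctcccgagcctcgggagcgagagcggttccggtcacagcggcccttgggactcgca
Nos1, chr5:117866589-117866838, plus strand: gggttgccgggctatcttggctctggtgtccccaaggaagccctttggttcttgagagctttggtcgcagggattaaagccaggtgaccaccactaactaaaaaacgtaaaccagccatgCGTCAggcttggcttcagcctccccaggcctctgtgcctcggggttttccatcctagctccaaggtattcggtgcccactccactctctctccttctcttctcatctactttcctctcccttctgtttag

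The Vip window holds this core at -79 from the start and the Nos1 window at -130, counted to the start. The Gal window printed here has none, although the core was present in a 300-base window of Gal, of the kind described next. Windows of 300 bases (250 before the start and 50 after it) were found for 25 of the 35 members, 31 windows in all. The core TGACG was in 13 of these 31 windows (41.9%) and in 20.8% of all 32851 windows of the mouse table, read on both strands. The full palindrome TGACGTCA, which contains the core, was in 0 of the 31 and in 1.79% of all windows. The homeodomain core TAATTA was in 4 windows (12.9% against 5.29% of all), and the SOX core ACAAAG was in 1 window (3.23% against 18.7%). These counts describe letters in the windows and were not tested.

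The level of nearly every member moved with the level of smooth muscle genes in the sample. A smooth muscle score, the mean log2(CPM + 1) of 18 smooth muscle genes none of which is a member, ran from 7.55 to 11.8 over the 97 libraries and from 8.57 to 11.2 within the 6 PBS-PO libraries alone. Within the groups, 33 of 34 members had a positive slope on this score (limma, adjusted p under 0.05) and 0 had a negative one, against 41.6% positive and 33.2% negative among all 17083 genes tested. The median slope of the members was 0.79 log2 units per unit of score, beside 0.02 for all genes tested and 1.01 for the muscle genes themselves. Adding the score to the 18 group means took the median residual SD of the members from 0.99 to 0.49 log2 units.

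The steepest slopes were those of neuropeptide genes. Nmu (neuromedin U, a peptide of cholinergic neurons that acts on immune cells) had a slope of 1.17 (SE 0.06), Grp (gastrin-releasing peptide) 1.06 (SE 0.07) and Calcb (beta-CGRP, a peptide of intrinsic sensory neurons) 1.002 (SE 0.08). Nos1 had a slope of 0.91 (SE 0.05), and Elavl4, the pan-neuronal RNA-binding protein HuD, one of 0.86 (SE 0.04). The 3 glial genes lay between 0.68 for S100b and 0.88 for Gfap, and Gdnf had a slope of 0.72 (SE 0.04). The 3 shallowest called members were L1cam, an adhesion protein of axons, at 0.19 (SE 0.05), Ednrb, the receptor for endothelin 3, at 0.19 (SE 0.06), and Reln, the secreted glycoprotein reelin, at 0.40 (SE 0.07). Reln is also made by lymphatic endothelium; the share of other cells in these levels was not tested. Of the 34, Npy alone did not pass the test (slope 0.12, SE 0.07, adjusted p = 0.105), and Npy reached 1 CPM in only 33 of the 97 libraries.

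**Figure D1:**
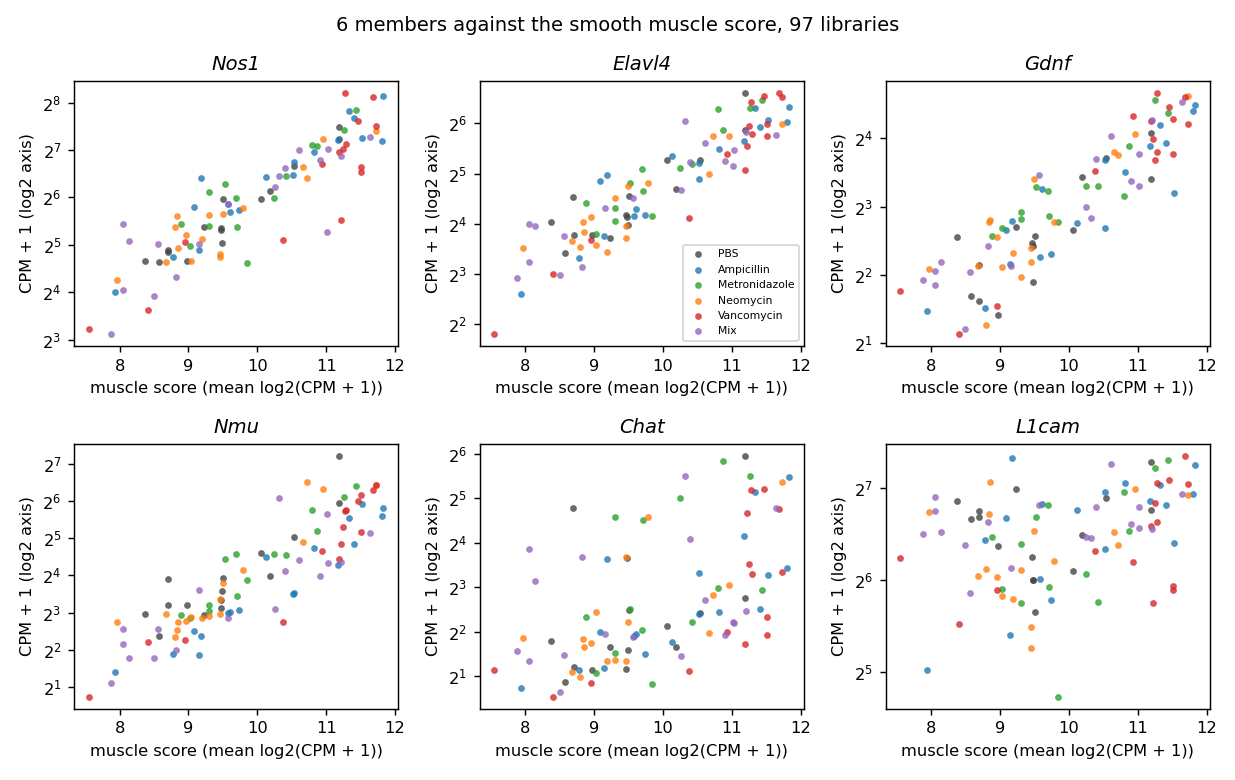
Level of 6 members (CPM + 1, log2 axis) against the smooth muscle score (mean log2(CPM + 1) of 18 genes) in 97 libraries, 1 point a library, coloured by treatment. Nos1, Elavl4, Gdnf and Nmu rise along the score with slopes of 0.91, 0.86, 0.72 and 1.17, Chat scatters widely around its slope of 0.67, and L1cam is nearly flat at 0.19.

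The cholinergic pair behaved unequally. Slc18a3, the vesicular acetylcholine transporter, had a residual SD of 0.49 log2 units beside the muscle score, close to the members' median. Chat, which makes acetylcholine, had one of 1.19, the widest of the 34. In the 5 PBS-IV libraries Chat stood at 4.32, 3.36, 2.48, 60.8 and 1.21 CPM, and Slc18a3 at 20.2, 15, 5.59, 40.4 and 6.29 CPM. The fourth library was the highest for both, but its distance from the next was far larger for Chat. Slc18a3 lies inside the first intron of Chat on the same strand, so the values of the pair may not be fully separate. Tuft cells also make Chat, and the summed CPM of 6 tuft cell markers in these libraries ran from 33.6 to 109, with none of the 6 at 0 throughout. Their part in the level of Chat was not tested.

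In the fit of all 18 groups without a covariate or weights, vancomycin given into the peritoneum was the 1 antibiotic and route in which members passed the test against PBS; with array weights members were also called in Ampicillin-PO, Vancomycin-IV and Mix-IP. Of 34 members, 12 were higher and 0 were lower in Vancomycin-IP than in PBS-IP, where 19% of all genes tested were called, 16% higher and 3.08% lower. All 34 fold changes were above 0, with a median of 1.69 on the log2(CPM + 1) scale beside 0.11 for all genes. In 28 members the 4 Vancomycin-IP libraries all lay above the 4 PBS-IP libraries, which was so for 22.9% of all genes, while 7.72% of all genes separated the other way and 0 members did. The smooth muscle genes stood in the same order: the score was 10.9 to 11.7 in Vancomycin-IP and 8.70 to 9.48 in PBS-IP, with no overlap (exact 2-sided permutation p = 0.0286, the smallest that 4 against 4 allow; adjusted p = 0.292 over 15 comparisons).

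Among the enzymes, Nos1, which makes nitric oxide in inhibitory motor neurons, stood at 293, 276, 139 and 104 CPM in Vancomycin-IP and at 28, 39.7, 28.8 and 39 CPM in PBS-IP. Every treated library was above every control, and the log2 fold change was 2.43 (SE 0.76, limma adjusted p = 0.025). Slc18a3 did not overlap either (26.2, 34.6, 23.5 and 12.9 against 5.66, 7.3, 7.49 and 7.45 CPM) but missed the threshold at 1.59 (adjusted p = 0.0696). Chat overlapped widely, from 2.97 to 35.4 CPM in Vancomycin-IP and from 1.23 to 26.4 in PBS-IP, with a log2 fold change of 1.11 (adjusted p = 0.395).

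Of the 8 neuropeptides 2 passed. Grp stood at 59.1, 107, 69.9 and 29 CPM against 5.33, 8.39, 19.5 and 9.59 (log2 fold change 2.52, adjusted p = 0.0465). Calcb stood at 28.2, 42.6, 26.5 and 9.69 CPM against 3, 2.5, 7.86 and 1.97 (2.50, adjusted p = 0.0447). In both genes the PBS-IP library nearest to the treated range was the third, which also had the lowest posterior Hox score of that group (1.36 against 5.01 to 5.26 in the other 3). Nmu had a fold change of 2.22 (adjusted p = 0.0831), Gal, which encodes galanin, 1.73 (0.123), Penk, the enkephalin precursor, 1.71 (0.0729), Tac1, the precursor of substance P, 1.69 (0.0734) and Vip 1.51 (0.169). Npy, at 0.275 to 3.9 CPM in Vancomycin-IP, had the smallest of the 8, 0.44 (adjusted p = 0.482).

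Both Hu proteins, RNA-binding markers of nearly all enteric neurons, were higher. Elavl4 stood at 84.5, 95.9, 54.1 and 41.1 CPM against 12.7, 17.2, 22.1 and 16.6 (log2 fold change 1.89, adjusted p = 0.0464), and Elavl3 rose by 1.83 (adjusted p = 0.0477). The transcription factors Hand2 (1.60) and Phox2a (1.28), which specify neural crest derived neurons, did not pass, with adjusted p of 0.0743 and 0.0963. Of the 9 pan-neuronal, synapse and axon genes only Syt1, the calcium sensor of synaptic vesicles, passed: 129, 117, 76.5 and 55.8 CPM against 18.9, 23.5, 21.6 and 24.4 (1.98, adjusted p = 0.0392). Their median fold change was 1.66, and the smallest was that of L1cam at 0.39 (adjusted p = 0.446), with overlapping libraries.

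Among glial genes, Sox10, the transcription factor of enteric glia and their progenitors, rose by 1.74 (adjusted p = 0.0419) from 4.58, 6.79, 9.86 and 6.45 CPM to 29.7, 39.1, 19.8 and 16.2. Gfap, the intermediate filament of glia, rose by 2.27 (adjusted p = 0.0445) from 4.39, 10, 15.9 and 6.8 CPM to 71.9, 92.7, 29.7 and 19. S100b, a calcium-binding glial protein, stood at 14.3, 22.9, 12.1 and 11.4 CPM against 3.5, 4.03, 6.22 and 4.63. Its libraries did not overlap, but its log2 fold change of 1.503 missed the threshold (adjusted p = 0.0601). The called members thus included genes of both neurons and glia.

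Gdnf and its co-receptor Gfra1 had the smallest p-values of all the members. Gdnf stood at 24.3, 23.5, 13 and 19.1 CPM in Vancomycin-IP and at 2.07, 4.51, 3.41 and 2.71 in PBS-IP, a log2 fold change of 2.32 (SE 0.62, adjusted p = 0.0126). Gfra1 rose by 2.20 (adjusted p = 0.0182) from 8.51, 10.7, 12.7 and 11.4 CPM to 56.4, 86.1, 47.6 and 33.9. The signalling receptor Ret rose by 1.96 (adjusted p = 0.031) from 22.1, 29.5, 24.2 and 29.3 CPM to 131, 147, 93.7 and 66.4, and Gfra2, the co-receptor for neurturin, rose by 1.56 (adjusted p = 0.0469). All 4 genes separated the groups completely. Ngfr, the low-affinity neurotrophin receptor, did not pass (1.51, adjusted p = 0.0855), nor did Reln (1.35, 0.0795) or Ednrb (0.81, 0.134).

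**Figure D2:**
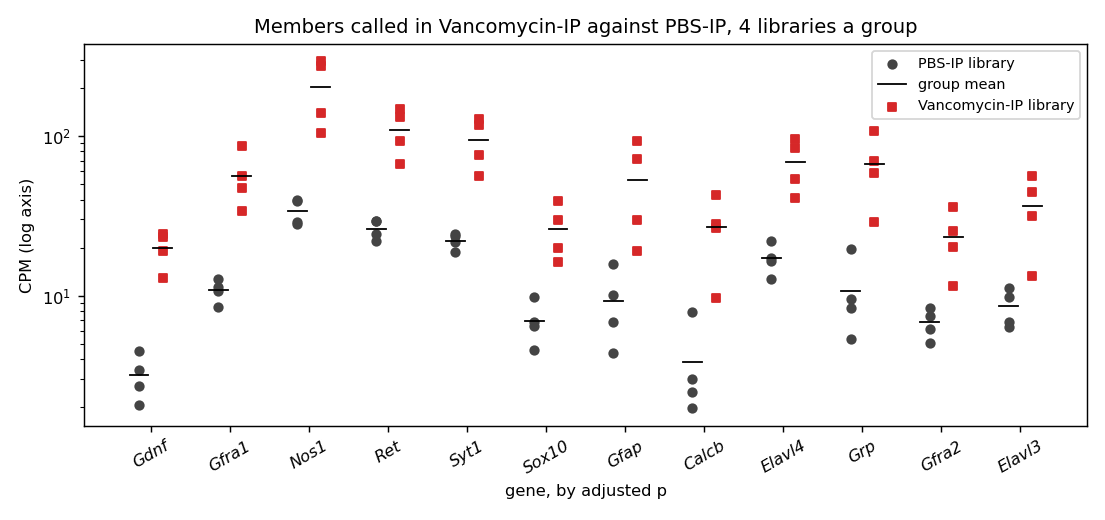
CPM (log axis) of the 12 members called in Vancomycin-IP against PBS-IP, with 4 libraries a group as points and the group mean as a bar, ordered by adjusted p. In each of the 12 genes all Vancomycin-IP libraries lie above all PBS-IP libraries, and Gdnf (2.07 to 4.51 against 13 to 24.3 CPM) is the first.

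With the smooth muscle score as a covariate, 0 of the 34 members were called in Vancomycin-IP (limma; 1 had an unadjusted p under 0.05), where 0.299% of all genes were. The median fold change of the members fell to -0.01, and 16 of the 34 were above 0. Gdnf had the largest value, 0.73 (SE 0.32, adjusted p = 0.474), followed by Gfra1 at 0.64 (adjusted p = 0.733), while Nos1 stood at 0.41 and Elavl4 at -0.02. Because the muscle scores of the groups do not overlap, this adjusted difference rests on the slope fitted within all 18 groups. With a pan-neuronal score of 7 members in place of the muscle score, 0 of the other 27 were called (limma; 4 had an unadjusted p under 0.05; 1.31% of all genes called). Their median was 0.23, and the largest value was that of Gdnf, 1.06 (adjusted p = 0.0885).

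Markers of other cell types were also counted in this comparison, where 16% of all genes were called higher and 3.08% lower without a covariate. Of the 18 smooth muscle genes 16 were higher (median 2.16), as were 2 of 3 markers of interstitial cells of Cajal (median 1.79), 4 of 8 fibroblast markers (1.58), 2 of 5 lymphatic endothelial markers (1.19) and 2 of 5 tuft cell markers that could be tested (0.62). Summed over 18 genes, smooth muscle CPM ran from 58588 to 98687 in Vancomycin-IP and from 11851 to 21480 in PBS-IP. Goblet cell markers were lower in 3 of 6 (median -2.97) and enteroendocrine markers in 1 of 7 (median -1.58). Of macrophage markers 1 of 6 was higher (median 0.54), close to the share of all genes. Of surface colonocyte markers (median -1.43) and B cell markers (median 0.18) 0 of 5 each were called. None of these markers was at 0 throughout, and apart from the muscle score their part in the members' levels was not tested.

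Which members were called moved strongly with single libraries. The count was 1 (Gdnf) without PBS-IP replicate 1, Vancomycin-IP replicate 1 or Vancomycin-IP replicate 2, where 5.42%, 3.55% and 3.25% of all genes were called. It was 3 without PBS-IP replicate 4 (11% of all genes) or Vancomycin-IP replicate 3 (8.34%), 5 without PBS-IP replicate 2 (11.3%) and 7 without PBS-IP replicate 3 (14.1%). Without Vancomycin-IP replicate 4 it was 18 (26.8%). Of the libraries compared, 3 of the 4 Vancomycin-IP libraries and 2 of the 4 PBS-IP libraries are among 12 libraries whose columns come last in the deposited table. Among those libraries alone, 33 of the 34 members were higher in the 3 Vancomycin-IP than in the 2 PBS-IP libraries, with a median difference of 1.45 log2 units. Among the others, with 1 Vancomycin-IP library and 2 of PBS-IP, all 34 were higher and the median was 2.21. The share of all genes that were higher in these subsets is not given here, so the counts cannot be set against it. Most members also follow the muscle score, so their directions are not independent of each other. With column position as a term in the fit 28 members were called, where 30.1% of all genes were, and without the 12 libraries 0 members and 0.0176% of all genes were.

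In the other 14 comparisons of an antibiotic with PBS, 0 of 34 members were called without a covariate or weights (limma). Between 0 and 5 had an unadjusted p under 0.05, a count for which the share of all genes is not given here. With array weights 10 were called in Ampicillin-PO, 8 in Vancomycin-IV and 2 in Mix-IP, where 18.1%, 31.1% and 36.7% of all genes were. Without weights the called share of all genes was 0% in Metronidazole-PO, Metronidazole-IP, Metronidazole-IV and Mix-IV. It was below 0.1% in Neomycin-PO (0.0176%), Ampicillin-PO (0.0702%) and Ampicillin-IV (0.082%). It was 0.176% in Vancomycin-PO, 0.252% in Mix-PO, 0.258% in Vancomycin-IV, 0.275% in Mix-IP, 0.492% in Ampicillin-IP, 0.544% in Neomycin-IV and 0.603% in Neomycin-IP. Members leaned upward in Metronidazole-IP, with a median of 1.02 (0.07 for all genes) and 32 of 34 above 0. They did so in Ampicillin-PO, with a median of 0.97 (0.08 for all genes) and all 34 above 0. They leaned downward in Neomycin-IV, with a median of -0.62 (-0.03 for all genes) and 0 of 34 above 0 (1 with quantile normalization). The share of all genes above 0 is not given here. As most members follow the muscle score, their signs are not independent observations. The muscle score differed in the same directions, by 1.13, 1.19 and -0.49, none past the threshold over 15 exact permutation tests (adjusted p = 0.428, 0.292 and 0.909). With the score as a covariate these medians were 0.17, 0.06 and -0.24, with 28, 20 and 2 of the 34 members above 0. Metronidazole-PO had a small median of 0.35 with 32 of 34 above 0, and 0.17 with 30 of 34 beside the score.

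Named members in these groups show the size of the overlap. In Ampicillin-PO, Gfra2 had the smallest unadjusted p (0.00694, adjusted p = 0.282) at a log2 fold change of 1.31. In Metronidazole-IP, Gdnf stood at 6.29, 6.03, 19.8 and 8.91 CPM against 2.07, 4.51, 3.41 and 2.71 in PBS-IP. Those libraries did not overlap, yet the fold change of 1.31 had an adjusted p of 0.579. Over the 18 group medians, Neomycin-IP was the lowest group and Vancomycin-IP the highest for Elavl4 (12.5 to 69.3 CPM), Ret (20.8 to 112), Nos1 (31.7 to 208) and Sox10 (5.95 to 24.8). Calcb, Gdnf, Gfap and Gfra1, among others, were lowest in PBS-IP itself.

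With the muscle score as a covariate, 1 member was called in 1 of the 15 comparisons with PBS, Vip in Mix-IP, and 0 in the other 14 (limma; 0 to 12 at an unadjusted p under 0.05). The called share of all genes in that fit was 0% for metronidazole by all routes, 0.0293% in Neomycin-PO, 0.041% in Mix-IV, 0.111% in Ampicillin-PO, 0.228% in Vancomycin-IV, 0.281% in Vancomycin-PO, 0.363% in Ampicillin-IV and 0.702% in Neomycin-IV. It was 1.08% in Neomycin-IP, 1.29% in Mix-PO, 2.06% in Ampicillin-IP and 3.08% in Mix-IP. Vancomycin-IV had the 12, with a median of -0.50 and 2 of 34 members above 0. The share of all genes with an unadjusted p under 0.05 is not given here, so the 12 cannot be set against it. In Vancomycin-IV the muscle score of replicate 1 was 8.41, and the next lowest of the group was 11.2. Ngfr, at -1.08 (adjusted p = 0.0726), and Slc18a3, at -1.05 (adjusted p = 0.0927), came nearest to the threshold there. In Ampicillin-IP the nearest was Nmu, at -1.21 (adjusted p = 0.0648).

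**Figure D3:**
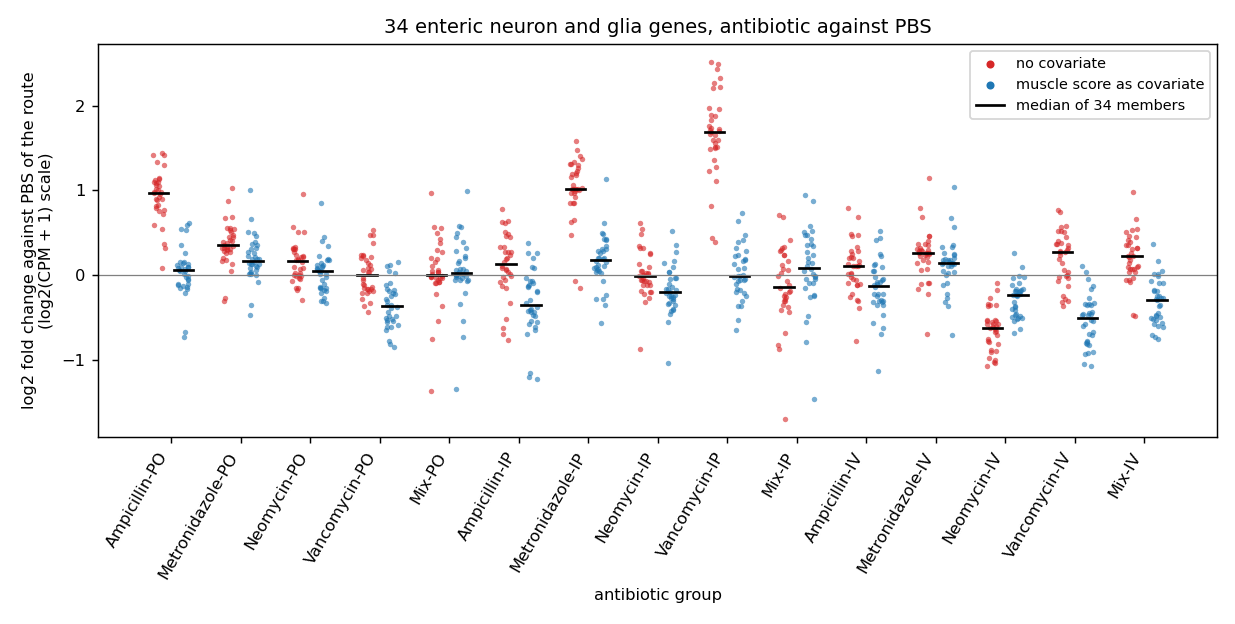
Log2 fold change on the log2(CPM + 1) scale of 34 members, 1 point a gene, in 15 comparisons with PBS given by the same route, without a covariate (red) and with the muscle score as covariate (blue). Black bars are medians of the 34 members. The red points of Vancomycin-IP stand around 1.69 and its blue points around -0.01, and the lowest blue point of Mix-IP is Vip at -1.46.

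Vip, the relaxant peptide of inhibitory motor and secretomotor neurons, was lower in Mix-IP than in PBS-IP beside the muscle score and was not called in Mix-PO or Mix-IV. It was at 95.1, 6.79, 30.8, 22.3, 18.6 and 24.1 CPM in Mix-IP, and at 91.2, 113, 36.8 and 118 in PBS-IP. All but 1 of the 6 mix libraries lay below every PBS-IP library, and replicate 1, at 95.1, lay among them. Without a covariate the log2 fold change was -1.70 (adjusted p = 0.273). With the muscle score it was -1.46 (SE 0.43, limma adjusted p = 0.0462), the 1 lower member of that fit. Of all genes 3.08% were called there, 1.71% lower and 1.37% higher. A count of 1 in 34 members is thus close to the share of all genes.

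By the oral route Vip stood at 9.99, 31.1, 60.6, 9.9, 89.9 and 50.2 CPM in Mix-PO and at 34.5, 130, 116, 64.7, 80.4 and 111 in PBS-PO, and the groups overlapped. Its fold change was -1.37 without a covariate (adjusted p = 0.453) and -1.34 beside the muscle score (SE 0.38), with an adjusted p of 0.0515. That comparison thus had 0 members called, where 1.29% of all genes were. In the vein, Vip ran from 45.8 to 179 CPM in Mix-IV with a median of 105, and from 19.7 to 309 in PBS-IV with a median of 70.6. Its fold change there was 0.07 without a covariate (adjusted p = 0.992) and -0.58 beside the muscle score (adjusted p = 0.828). The F test for equal effects of the mix over the 3 routes had an adjusted p of 1 for Vip, so a difference between routes was not shown.

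A further comparison set the mix against the average of the 4 drugs given singly by the same route. In Mix-IP 2 members were lower without a covariate, Vip at -1.95 (adjusted p = 0.0365) and Reln at -1.28 (adjusted p = 0.0445), where 3.34% of all genes were called, 2.87% lower and 0.474% higher. Reln stood at 7.64, 1.28, 6.11, 2.39, 4.84 and 5.94 CPM in Mix-IP. All but 1 of the 34 members were below 0 (all but 3 with quantile normalization), with a median of -0.87 beside -0.12 for all genes. Of the 4 single groups one is Vancomycin-IP, and with the muscle score 0 members were called (limma; 4 at an unadjusted p under 0.05; 1.98% of all genes). In Mix-PO 0 members were called without a covariate (limma; 2 at an unadjusted p under 0.05; 1.64% of all genes), and with the muscle score Vip was lower, at -1.05 (adjusted p = 0.0466; 2.17% of all genes called, 0.316% lower). In Mix-IV 0 members were called in either fit (limma; 0 in both at an unadjusted p under 0.05; 0.00585% of all genes).

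With the pan-neuronal score in place of the muscle score, 1 of 27 members was called in Mix-IP against PBS-IP (4.65% of all genes called). It was Vip, lower at -1.55 (limma, adjusted p = 0.0484). In Mix-PO against the single antibiotics 1 of 27 was called (3.71% of all genes), again Vip, at -1.19 (adjusted p = 0.0366). Both counts are close to the shares of all genes. In Mix-IP against the single antibiotics that fit called 2 of 27 members lower (5.88% of all genes called), Ret at -0.37 (adjusted p = 0.0271) and Vip at -1.15 (adjusted p = 0.0441).

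The calls of Vip are close to the threshold. Leaving out any 1 of 8 of the 10 libraries took it from the Mix-IP result against PBS-IP, and the fold change then ran from -1.72 to -1.29 over all 10. It kept the call without Mix-IP replicate 6 (adjusted p = 0.0248) or without PBS-IP replicate 3 (0.0116).

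The level of posterior Hox genes, which mark the far end of the colon, also varied between libraries. A distal score, the mean log2(CPM + 1) of 5 of these genes (Hoxa13, Hoxb13, Hoxd13, Hoxd12, Hoxd11), ran from 0.80 to 6.15 over the libraries. In Mix-PO it was 0.97 to 3.78 with a median of 1.59, and in PBS-PO 1.91 to 5.96 with a median of 3.70. In Mix-IP 4 of 6 libraries were below 3, while 3 of the 4 PBS-IP libraries were above 5. Neither difference passed an exact 2-sided permutation test (Mix-PO p = 0.0844, Mix-IP p = 0.257, adjusted p = 1 over 15 for each).

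Within groups and beside the muscle score, 27 of 34 members had a negative slope on the distal score and 3 a positive one (limma), against 31.6% negative and 29.7% positive among all genes. The 3 positive members were Vip at 0.32 per unit (SE 0.03, adjusted p = 2.54e-17), Npy at 0.30 (SE 0.03, adjusted p = 4.69e-16) and Reln at 0.16 (SE 0.04, adjusted p = 0.00167). The steepest negative slope was that of Gal, -0.45 (SE 0.04, adjusted p = 3.69e-18), followed by Gfap at -0.29, Ednrb at -0.25, Grp at -0.24 and Calcb at -0.23. Nmu (-0.003), Syt1 (-0.05), Ngfr (0.05) and Chat (-0.12) did not pass. The members' median was -0.11, beside -0.003 for all genes.

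**Figure D4:**
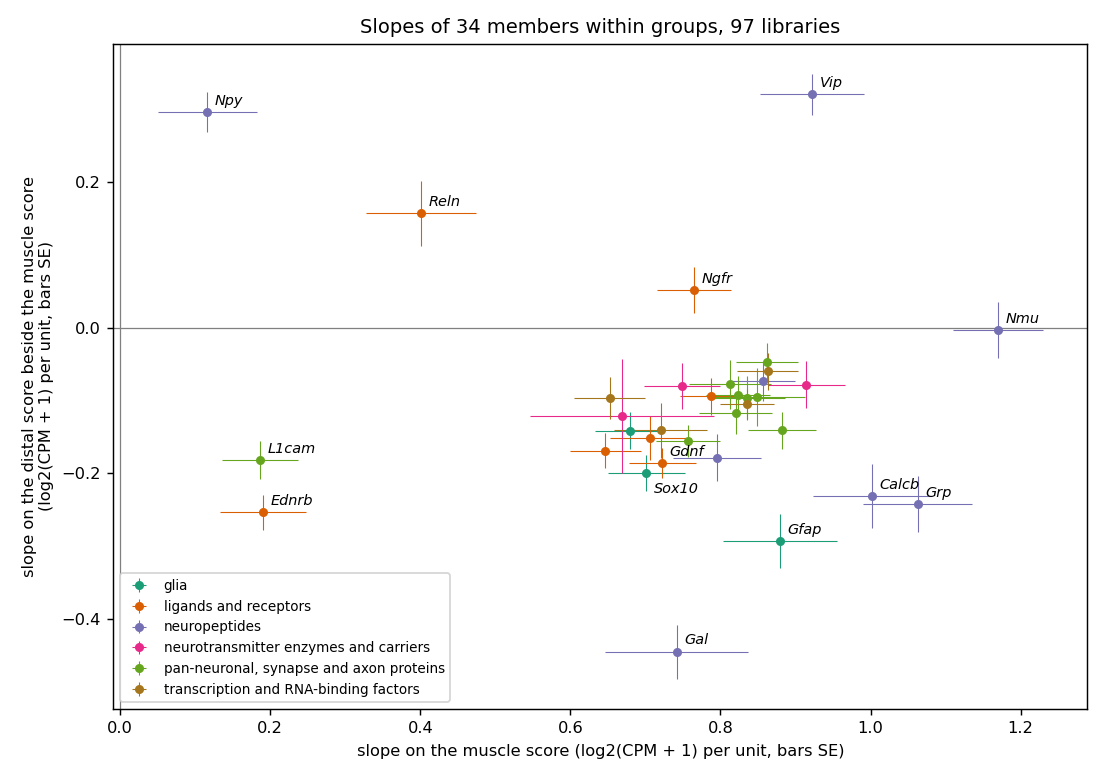
Slope on the muscle score (x axis) and slope on the distal score beside the muscle score (y axis) for 34 members, in log2(CPM + 1) per unit of score, fitted within groups over 97 libraries. Points are genes coloured by role and bars are SE. Most members lie near a muscle slope of 0.79 and a distal slope of -0.11, and Vip (0.92, 0.32) and Gal (0.74, -0.45) stand at opposite ends of the vertical axis.

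The neuropeptides therefore spanned the whole range of distal slopes. In PBS-PO, the 3 libraries with distal scores of 1.91, 2.10 and 2.55 had 14.1, 49.2 and 22.5 CPM of Gal, and those with scores of 5.65, 5.96 and 4.85 had 7.78, 3.92 and 8.8. The lower-score libraries were thus the higher ones for Gal in these controls. Adding the distal score took the residual SD of Gal from 0.92 to 0.55 log2 units and that of Vip from 0.67 to 0.41. That of Nos1, a gene of the same inhibitory neurons as Vip, went from 0.50 to 0.48. Npy was listed at 0 to 7.27 CPM over all libraries and passed 1 CPM in 33 of them, so its slope describes a gene near the lower end of detection.

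**Figure D5:**
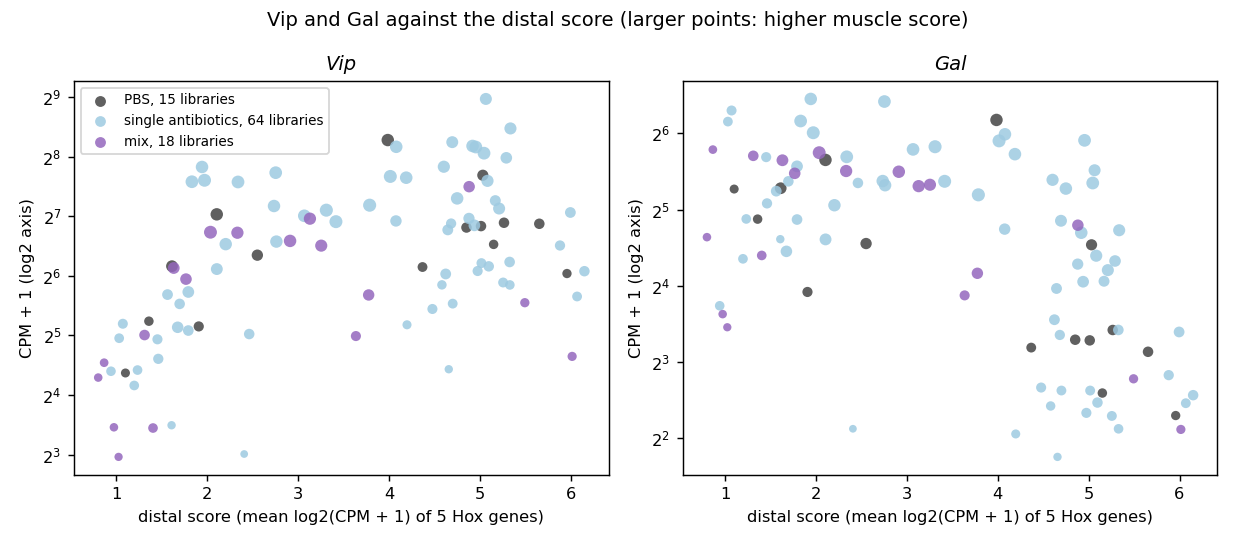
Vip and Gal (CPM + 1, log2 axis) against the distal score (mean log2(CPM + 1) of 5 Hox genes), 1 point a library, in 15 PBS, 64 single antibiotic and 18 mix libraries, with larger points for a higher muscle score. Gal tends to fall and Vip to rise along the score (slopes of -0.45 and 0.32 beside the muscle score), with wide scatter. The Mix-PO libraries, with a median score of 1.59, lie mostly to the left.

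With both scores as covariates, Vip was at -0.94 in Mix-IP against PBS-IP (adjusted p = 0.056; 1.13% of all genes called) and at -0.78 in Mix-PO against PBS-PO (adjusted p = 0.101; 0.743% called). Against the single antibiotics it was at -0.49 in Mix-PO (adjusted p = 0.236; 0.369% called). That fit called Vip lower in Ampicillin-IP against PBS-IP, at -1.003 (SE 0.27, adjusted p = 0.019), where 0.855% of all genes were lower. Vip stood at 74.2, 20.6, 42.5, 128, 94.3 and 20.1 CPM there, overlapping the 4 PBS-IP libraries, which are the same controls as for Mix-IP. It also called Ngfr lower in Vancomycin-IV against PBS-IV, at -1.09 (SE 0.30, adjusted p = 0.0481; 0.152% of all genes lower). Ngfr ran from 5.19 to 48.2 CPM in Vancomycin-IV and from 9.24 to 73.6 in PBS-IV.

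The route of administration gave no difference that passed the test for any member. For each of the 4 antibiotics and the mix, the F test that the difference from PBS was equal by mouth, peritoneum and vein called 0 of 34 members, as did that between the 3 PBS groups (limma). Among all genes it called 0.0878% for neomycin (0.135% with the muscle score) and 0% for the other 5 tests. At an unadjusted p the smallest value of a member was that of Npy for metronidazole (0.00891, adjusted p = 1). Nos1 for vancomycin, with 104 to 293 CPM in Vancomycin-IP and 8.41 to 124 in Vancomycin-PO, had an adjusted p of 0.632 (limma). With the muscle score 0 members were called in all 6 tests.

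Beyond the members, a list of 54 other genes of enteric neurons, glia and their ligands and receptors was counted, of which 52 were tested. In Vancomycin-IP 14 of the 52 were higher and 0 lower without a covariate, beside 16% of all genes higher and 3.08% lower. They included Bdnf, a neurotrophin (log2 fold change 2.33, adjusted p = 0.00562), Kcna1, a potassium channel of axons (1.66, 0.0103), and Fabp7, a fatty acid binding protein of glia (1.13, 0.0141). With the muscle score 0 of the 52 were called in Vancomycin-IP, beside 0.299% of all genes. In that fit Kcna1 was higher in Ampicillin-IV than in PBS-IV, at 1.00 (SE 0.19, adjusted p = 0.00111), where 0.363% of all genes were called. In Mix-PO against the single antibiotics Vldlr, a receptor for reelin, was higher at 0.96 without a covariate (limma, adjusted p = 0.0271). With the muscle score Vldlr was at 0.80 (adjusted p = 0.0187). Of all genes 1.64% and 2.17% were called in these 2 fits. In Mix-IP against the single antibiotics, without a covariate, Dbh, which makes noradrenaline, was lower at -2.16 (limma, adjusted p = 0.0311). Ntf3, a neurotrophin, was lower there at -0.62 (adjusted p = 0.0345), and 3.34% of all genes were called.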

How the data were processed

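RNA was selected for poly(A) from 1000 ng per library and sequenced for 75 cycles, single-end, per the labels' protocols. Trimming used Trim Galore 0.6.2 with cutadapt 3.5 and quantification used Salmon, on the build GRCm39, according to the submitters' processing notes. The authors deposited 1 table of normalized values, which were taken as CPM from the values themselves. Each library sums to 1000000, which by itself does not tell CPM from TPM. In each library 39.4% to 56.5% of low values lay within 0.1 step of a multiple of 1 step. A flat spread would give no more than 20% for a step fixed in advance. The step was fitted to the same values, so the 20% is only a rough guide. The test had been laid out for TPM, and the same test was applied to CPM. As estimated counts are not whole, no count test was run, and depths read from that step are rough.

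Values were used as log2(CPM + 1). Of 20457 genes, the 17083 with at least 1 CPM in at least 4 libraries were fitted in 1 limma 3.58.1 model (R 4.3.3; trend, robust) with 18 groups. P-values were adjusted by Benjamini-Hochberg over all genes within each comparison, and called under 0.05. Fold changes on this scale understate changes of low genes. The muscle score, the distal score or a pan-neuronal score entered as covariates. Slopes on the distal score were added after the data were seen. The fit was also run on simulated data, with changes placed in Mix-PO alone and noise drawn separately for each gene. That run does not cover Vancomycin-IP, where the muscle scores of the groups do not overlap.

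The members, gene lists and marker lists were chosen with earlier results of these data known. All members could be named, with up to 4 called genes of the other lists per comparison. Promoters were not found for 10 members. Other settings tried were array weights, a replicate block, quantile normalization, a pseudocount of 10, no filter, a fit of the compared groups alone, a 4-gene muscle score, each library left out in turn, and, for the 12 libraries with columns last, leaving them out or (added after the data were seen) column position as a term.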

Additional observations from a re-analysis of the deposited data

Results flagged for a closer look

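Single libraries that stood far from the rest of their group, by Dixon's test at the 95% level, were looked for in 108 tests of a few members and of the muscle score. There were 8 such values, where chance alone gives about 5% of tests. Vancomycin-IV replicate 1 accounts for 4 of them. Its muscle score was 8.41, and the next lowest of its group was 11.2. In the same library Vip stood at 35.2 CPM (next 143), Gal at 3.16 CPM (next 37.7) and Gdnf at 1.19 CPM (next 11.9).

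Gdnf stood at 18.3 CPM in Mix-IP replicate 1, far above the next library at 3.54 CPM; that library also had the highest muscle score of its group, 11.2. Gal stood at 5.87 CPM in Mix-IV replicate 3, far below the next at 26.7 CPM; its distal score of 5.49 was the highest of that group. Chat stood at 60.8 CPM in PBS-IV replicate 4, far above the next at 4.32 CPM. The muscle score of Neomycin-IP replicate 5 was 11, and the next of its group was 9.3.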

How the results depend on the processing

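On the muscle score 32 to 34 members were called over the settings run (33 without any 1 library), and on the distal score 28 to 31 (25 to 31 without 1 library). The 12 members higher in Vancomycin-IP became 6 with no filter (14.2% of all genes called), 28 with column position as a term (30.1%), 29 in a fit of the compared groups alone (34%), 33 with array weights (57.9%) and 0 without the libraries with columns last (0.0176%), which leaves 1 library against 2; over single libraries left out the range was 1 to 18. The other 14 listed genes there became 30 with column position, 33 in the fit alone, 43 with array weights and 3 to 21 with 1 library left out. Beside the pan-neuronal score 2 of the listed genes were called, where 1.31% of all genes were. Array weights also called 10 members in Ampicillin-PO (18.1% of all genes), 8 in Vancomycin-IV (31.1%) and 2 in Mix-IP against PBS (36.7%).

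Of the mix against single antibiotics, the 2 lower members in Mix-IP were 0 with a pseudocount of 10 or quantile normalization (0.755% and 0.714% of all genes), 1 with no filter or without the last columns (2.13% and 1%), 12 with column position (16.2%), 15 with array weights (42.8%), and 0 to 11 with 1 library left out. The count of 0 in Mix-PO was 3 with array weights (20%), 1 without the last columns or with column position (4.86% and 4.4%), and 0 to 1 with 1 library left out. Beside the muscle score, the call of Vip in Mix-IP against PBS was lost (count 0) with a pseudocount of 10, the 4-gene score or both scores, and ran from 0 to 1 with 1 library left out; that of Mix-PO against PBS became 1 with the replicate block or with column position, and 0 to 1 with 1 library left out. In Mix-PO against the single antibiotics it was 0 with both scores and 0 to 1 with 1 library left out, and in Mix-IP 1 with column position and 0 to 1. With column position Ampicillin-IP had 2 lower members. With both scores Ampicillin-IP and Vancomycin-IV had 1 each, where 3.07% and 0.948% of all genes were called. With the replicate block beside the muscle score 1.35% of all genes were called in Mix-PO against PBS. Where a count with column position has no share of all genes beside it, it cannot be set against one. The uncalled value of Vip in Mix-IV against PBS, 0.07, changed sign to -0.015 with quantile normalization, -0.78 without the last columns, -0.53 with column position, and with 1 library left out ran from -0.47 to 0.51; it was -0.11 and -0.0028 without Mix-IV replicate 4 or 6, and -0.022, -0.47 and -0.026 leaving out PBS-IV replicate 1, 3 or 5. The muscle score difference of Neomycin-PO changed sign from 0.164 to -0.0365 with the 4-gene score. Except where stated, the cause was not tested.

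Replicate numbers were not treated as pairs: in 0 of 15 comparisons was every correlation of same-numbered deviations over 0.1 (range -0.70 to 0.84). That rule is strict and cannot show that pairing is absent. The mean same-number correlation was 0.36 in Neomycin-PO (-0.07 for other pairs) and -0.31 in Ampicillin-IV (0.07 for other pairs). The replicate block changed the call of Vip in Mix-PO against PBS (-1.34, adjusted p = 0.0412) and no other call. Quantile normalization moved the median of all genes by -0.17 in Vancomycin-IP and by 0.13 in Mix-IP against the single antibiotics; in the former it called 12% of all genes higher and 9.21% lower, and all 34 members stayed above 0, and 3 of 34 rather than 1 lay above 0 in the latter. CPM limit what depth can show for Npy and Erbb4, which lie near or under 1 CPM.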
